A study of Mus musculus with 8 samples.

Results

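The genes described here make, break down, take up and sense retinoic acid, the active form of vitamin A, in the mouse testis. The 10 members were Stra6, Rdh10, Dhrs3, Aldh1a1, Aldh1a2, Cyp26b1, Rara, Rarb, Rarg and Stra8. They were chosen by name as a pathway, with earlier results of these data known. All 10 were found by their Ensembl identifiers among the 24988 genes of the table. RNA of adult mouse testis was sequenced in 8 libraries, 4 with the genotype label Kpna2-/- and 4 labelled WT. The Kpna2 protein is an importin alpha that binds cargo for import into the nucleus, and the study concerned male infertility and the import of testis transcription factors. The labels give no strain, no age beyond adult and no account of how the allele was made. Nor do they say that each library is a separate animal, and the p-values therefore cover the spread among libraries alone, which may be technical. Values are CPM, the authors' scaled read counts, shown per library or as mean ± SD (n = 4). A log2 fold change is the labelled knockout mean minus the labelled wild-type mean of log2(CPM + 0.5), and a gene rose or fell where limma gave an adjusted p under 0.05.

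Retinol enters cells through STRA6, is oxidized to retinaldehyde by RDH10, and DHRS3 reduces retinaldehyde back to retinol. Retinaldehyde dehydrogenases, among them ALDH1A1 and ALDH1A2, make retinoic acid, and CYP26 enzymes hydroxylate it for removal. Retinoic acid binds the nuclear receptors RARA, RARB and RARG, which sit on DNA with a retinoid X receptor and recruit corepressors or coactivators. In the testis it drives the differentiation of spermatogonia and the entry into meiosis, for which Stra8 is the best known response gene, and both germ cells and somatic cells hold parts of the pathway.

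Retinoic acid receptors are known to bind repeats of a core motif in the same orientation, with the letters AGGTCA, with the letters GGGTCA, with the letters AGTTCA or with the letters GGTTCA, so the starts of the pathway genes were searched for them. RefSeq promoter windows on GRCm38.p6, which span 250 bases before to 50 bases after an annotated start, were matched for 9 of the 10 members (19 windows). Rdh10 had none. A direct repeat of 2 of these 4 core motifs with a spacer of 5 bases, on either strand, was found in 32 of 32851 windows (0.0974%). Among the members Rarb alone held it, in the element that is the textbook example of such a site, 53 to 37 bases before the start. Among the other pathway genes listed below, Cyp26a1 alone held it. With a spacer of 2 bases the repeat was in 0.268% of all windows and in no pathway gene. With a spacer of 1 base it was in 0.222% of windows and, among pathway genes, in Bco1. Stra8 held the single core AGGTCA at 2 places, and 1.81% of all windows held it at least 2 times. Adh4, Bco1 and Rxra of the other pathway genes also held it at 2 places, counting either strand. Of these Adh4 and Bco1 rose, and Rxra did not pass the test. The stretches of Rarb, Cyp26a1, Bco1 and Stra8 follow, 5′ to 3′ on the strand that carries the motif, with the core motifs in capitals. They were picked because Rarb and Bco1 changed in these libraries while Cyp26a1 and Stra8 did not pass the test. A match describes letters only and is no evidence of binding.
Rarb, chr14:16575507-16575535, minus strand: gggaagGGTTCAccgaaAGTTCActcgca
Cyp26a1, chr19:37697770-37697798, minus strand: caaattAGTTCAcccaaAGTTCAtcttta
Bco1, chr8:117095801-117095829, minus strand: tgtgtgttAGGTCAaAGGTCAgttcccaa
Stra8 distal, chr6:34920743-34920770, plus strand: atggggtgaaaAGGTCAtcttgctcctt
Stra8 proximal, chr6:34920899-34920926, plus strand: cctggggtaccAGGTCAgttttttacct

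The targeted gene went against the labels. Kpna2 had 13.97, 15.1, 14.04 and 12.4 CPM where the label was wild type, against 15.3, 20.2, 19.4 and 21.7 CPM where it was knockout. All 4 libraries labelled knockout lay above the others (log2 fold change 0.44, SE 0.10, limma adjusted p = 0.0079). A value for the whole gene gives no check of the deleted part, and directions are given by label throughout. The libraries held 31133443 to 37797812 reads, so 1 read was worth between 0.0262 and 0.0323 CPM. Across the table limma called 3731 of 22027 tested genes.

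Of the 10 members 3 fell, Aldh1a1, Cyp26b1 and Rarb, and none rose. Among all tested genes 16.9% were called, 8.32% lower and 8.62% higher, so 3 of 10 genes is a count to read beside a high background. The libraries of the labels did not overlap for the same 3 members, against 20.9% of all tested genes. The median log2 fold change of the 10 members was -0.06, beside -0.01 for all tested genes. All 10 passed the filter on low values. The edgeR test also called 3, none higher (16.8% of all genes called), and DESeq2 called 4, with Rarg higher (18.1% of all genes called). At an unadjusted limma p under 0.05 there were 4 members, the additional gene again being Rarg, beside 30.2% of all tested genes at that unadjusted threshold.

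**Figure D1:**
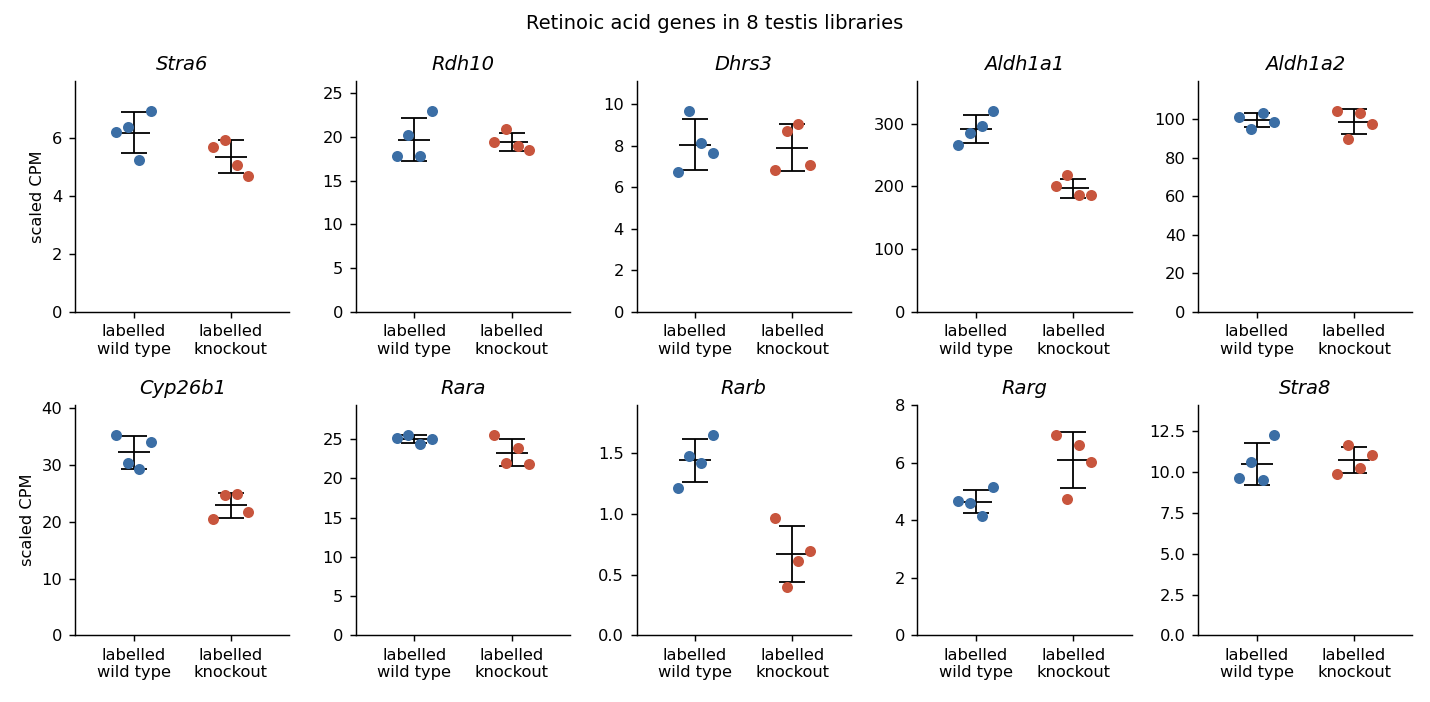
Scaled CPM (vertical axis, from 0) of the 10 members in each library, blue for the wild-type label and red for the knockout label, with the mean and SD of 4 libraries in black. The red points of Aldh1a1, Cyp26b1 and Rarb lie below all blue points, those of Rarg lie mostly above them, and in the other panels the colours mix.

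Uptake and the retinol step showed no member past the test. Stra6, the membrane receptor that brings in retinol from its carrier in blood, had 6.20, 6.35, 5.22 and 6.92 CPM in the wild-type group, against 5.69, 5.92, 5.07 and 4.69 CPM in the knockout group. The groups overlapped, and the log2 fold change was -0.19 with a 95% interval of -0.43 to 0.05 (limma adjusted p = 0.27). Rdh10 (chromosome 1, 16105774 to 16133734 in GRCm38), which makes retinaldehyde, stood at 17.8, 20.2, 17.8 and 23.0 CPM against 19.4, 20.9, 18.9 and 18.5 CPM. Dhrs3, which runs the step backwards, stood at 6.74, 9.68, 8.15 and 7.65 CPM against 6.83, 8.72, 9.04 and 7.07 CPM. The interval of the log2 fold change was -0.20 to 0.17 for Rdh10 and -0.28 to 0.24 for Dhrs3, so changes of such a size were not resolved. The quotient of the CPM of Rdh10 over that of Dhrs3 within a library, like the other quotients below, is not adjusted for gene length and serves to compare libraries, not genes. It averaged 2.48 ± 0.423 for the wild-type label against 2.49 ± 0.321 for the knockout label, with overlapping ranges.

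Of the enzymes that make retinoic acid, Aldh1a1 fell and Aldh1a2 did not pass. Aldh1a1 (ENSMUSG00000053279; chromosome 19, 20492715 to 20643465 in GRCm38) had 266, 286, 297 and 320.2 CPM under the wild-type label. Under the knockout label it stood at 199.99, 217, 186 and 186 CPM, and the highest of these lay below the lowest wild-type value. From 292 ± 22.6 to 197 ± 15.1 CPM this was a 1.48-fold lower mean, or -32.5% (log2 fold change -0.57, SE 0.06, limma adjusted p = 4.1e-05). Its rows held 5751 to 12218 reads per library. Aldh1a2 (chromosome 9, 71215789 to 71296243) stood at 101, 94.8, 103 and 98.4 CPM against 104, 89.6, 103 and 97.6 CPM. The ranges lay over each other, with means of 99.4 ± 3.66 and 98.6 ± 6.59 CPM and an interval of -0.13 to 0.11 on the log2 scale (limma adjusted p = 0.90). The quotient of Aldh1a1 over Aldh1a2 within a library was 2.63 to 3.25 for the wild-type label against 1.80 to 2.43 for the knockout label, ranges that did not meet.

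Aldh1a1 shares a small part of its sequence with a related gene. Of the 50-base windows of its annotated transcripts, 3.06% also occurred in Aldh1a7, a neighbouring family gene, and in no other gene. Aldh1a7 stood at 10.4, 18.2, 10.9 and 18.3 CPM against 11.4, 11.1, 14.1 and 5.88 CPM and was not called (limma adjusted p = 0.22). Its means were 14.5 and 10.6 CPM, where those of Aldh1a1 were 292 and 197 CPM. The other enzymes that can make retinoic acid were not called: Aldh1a3 stood at 3.57 ± 0.644 and 4.04 ± 1.19 CPM and Aldh8a1 at 3.11 ± 0.444 and 2.40 ± 0.485 CPM.

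The enzyme that removes retinoic acid fell as well. Cyp26b1 (ENSMUSG00000063415; chromosome 6, 84571414 to 84593908 in GRCm38, minus strand) had 35.3, 30.4, 29.2 and 34.1 CPM in the wild-type group, against 20.5, 24.6, 24.95 and 21.7 CPM in the knockout group. All 4 libraries labelled knockout lay below all 4 labelled wild type, from 701 to 1300 reads per library. The mean went from 32.2 ± 2.91 to 22.9 ± 2.21 CPM, 1.41-fold lower (log2 fold change -0.48, SE 0.08, limma adjusted p = 0.0010). The quotient of Aldh1a1 over Cyp26b1 was 7.53 to 10.2 for the wild-type label against 7.44 to 9.77 for the knockout label. These ranges overlapped. Aldh1a2, which also makes retinoic acid, is not part of that quotient and stood at 99.4 and 98.6 CPM while Cyp26b1 fell. The quotient therefore does not describe synthesis against removal as a whole. Cyp26a1, a related hydroxylase that retinoic acid induces in many tissues and whose repeat is printed above, stood at 1.39, 0.982, 0.875 and 1.89 CPM against 0.934, 1.34, 1.16 and 1.14 CPM and was not called (limma adjusted p = 0.78). Cyp26c1 averaged under 0.5 CPM and was not tested.

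The 3 receptor genes went different ways. Rarb (ENSMUSG00000017491; chromosome 14, 16430839 to 16819156 in GRCm38, minus strand), itself a classic retinoic acid response gene, had the lowest level per exon length of the 10 members. It had 41, 51, 47 and 63 reads under the wild-type label and 33, 14, 19 and 24 reads under the knockout label, that is 1.22, 1.47, 1.42 and 1.65 CPM against 0.963, 0.400, 0.613 and 0.698 CPM. No library labelled knockout reached the lowest wild-type value, and knockout replicate 1 came nearest. The mean was 2.15-fold lower, from 1.44 ± 0.179 to 0.669 ± 0.233 CPM (log2 fold change -0.75, SE 0.16, limma adjusted p = 0.0050). At such a level the pseudocount sets the log2 value, which was -1.05 with 0.1 CPM and -0.37 with 2 CPM, and -1.10 by edgeR on the reads, and the gene was called in each.

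Rarb also shares sequence with a neighbour. Its annotated exons overlapped 1793 bases of exons of Top2b, a DNA topoisomerase gene on the other strand, out of an exon length of 5265 bases, and the strand setting of the counting is not given. Top2b stood at 36.5 ± 2.64 and 33.9 ± 1.44 CPM and was not called (limma adjusted p = 0.28). Reads from the 2 genes cannot be told apart over that stretch without strand, so the level of Rarb is uncertain.

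Rara, the receptor of Sertoli cells and of germ cells, stood at 25.1, 25.5, 24.4 and 25.0 CPM against 25.5, 21.97, 23.8 and 21.8 CPM. The groups overlapped, with an interval of -0.24 to 0.04 on the log2 scale (limma adjusted p = 0.31). Rarg, the receptor known from spermatogonia, had 4.69, 4.59, 4.17 and 5.16 CPM in the wild-type group, against 6.98, 4.75, 6.62 and 6.02 CPM in the knockout group. Of these 4 values, 3 lay above every wild-type value and knockout replicate 2 lay among them. The log2 fold change was 0.35 with an interval of 0.09 to 0.61 and did not pass (limma adjusted p = 0.066), whereas without knockout replicate 2 it was 0.45 and passed (limma adjusted p = 0.014), as it did by DESeq2 (adjusted p = 0.046). The CPM of Rarg over that of Rarb within a library averaged 3.26 ± 0.406 for the wild-type label against 9.63 ± 2.08 for the knockout label, without overlap. The CPM of Rara over that of Rarg was 4.84 to 5.85 for the wild-type label against 3.60 to 4.63 for the knockout label. These quotients describe the libraries and were not tested.

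Stra8, which is switched on as germ cells commit to meiosis, did not pass the test. It stood at 9.64, 10.6, 9.48 and 12.3 CPM against 9.90, 11.6, 10.3 and 11.1 CPM, from 314 to 468 reads, and the wild-type range enclosed all 4 libraries labelled knockout. The interval of the log2 fold change was -0.17 to 0.24 (limma adjusted p = 0.86).

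**Figure D2:**
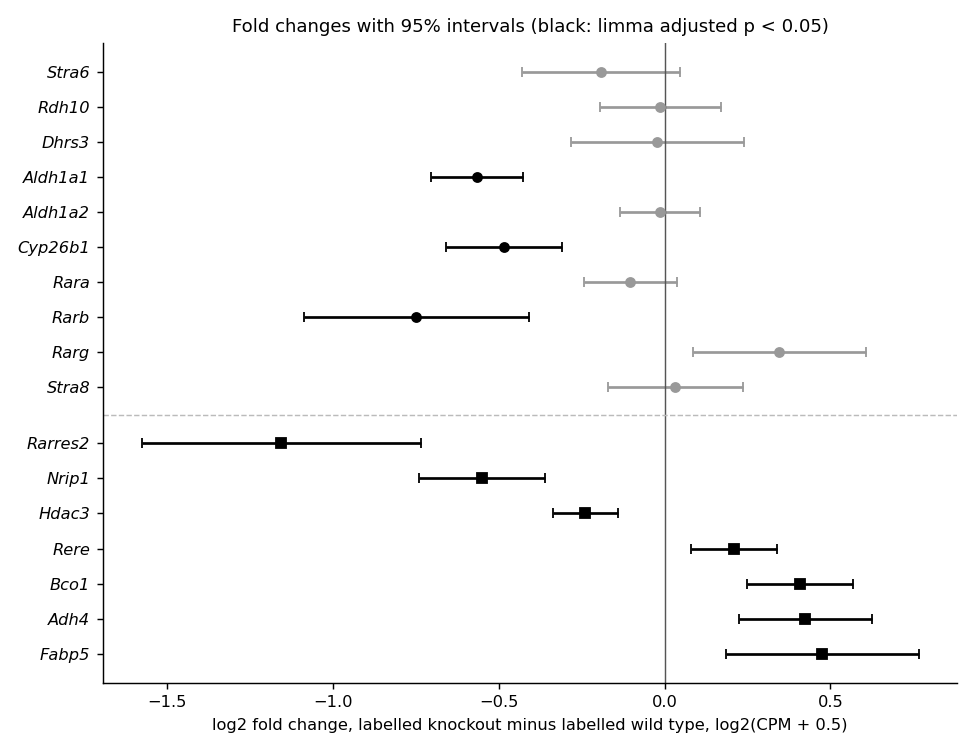
Log2 fold change (horizontal axis, labelled knockout minus labelled wild type) with its 95% interval from limma, for the 10 members above the dashed line and for called genes of the wider pathway list that the text names below it. Genes in black had an adjusted p under 0.05, and the intervals of Aldh1a2, Rdh10 and Stra8 include 0.

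To order the members by level, CPM was divided by kilobases of annotated exon. Under the wild-type label the order was led by Aldh1a1 at 59.2 ± 4.58 CPM per kb and Aldh1a2 at 43.9 ± 1.62, whose libraries did not overlap. Under the knockout label Aldh1a2 at 43.5 ± 2.91 and Aldh1a1 at 39.9 ± 3.06 CPM per kb overlapped. Next under the wild-type label came Cyp26b1 at 6.02 ± 0.543, Stra8 at 5.82 ± 0.709 and Rara at 5.73 ± 0.111 CPM per kb. Cyp26b1, Stra8 and Rara all overlapped with each other, so their order was not resolved. Rara stood apart from Rdh10, the next in order, while Cyp26b1 and Stra8 each overlapped with Rdh10. Under the knockout label Cyp26b1, at 4.28 ± 0.412, came after Stra8, Rara and Rdh10 and overlapped with Rdh10. Dhrs3 followed under both labels. Rarg and Stra6, which overlapped under the wild-type label at 1.09 ± 0.0960 and 1.06 ± 0.121 CPM per kb, stood apart under the knockout label at 1.43 ± 0.230 and 0.916 ± 0.0972. Rarb was lowest in both groups, at 0.273 ± 0.0340 and 0.127 ± 0.0442 CPM per kb. Per exon length, Rara was above Rarg and Rarb in every library.

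**Figure D3:**
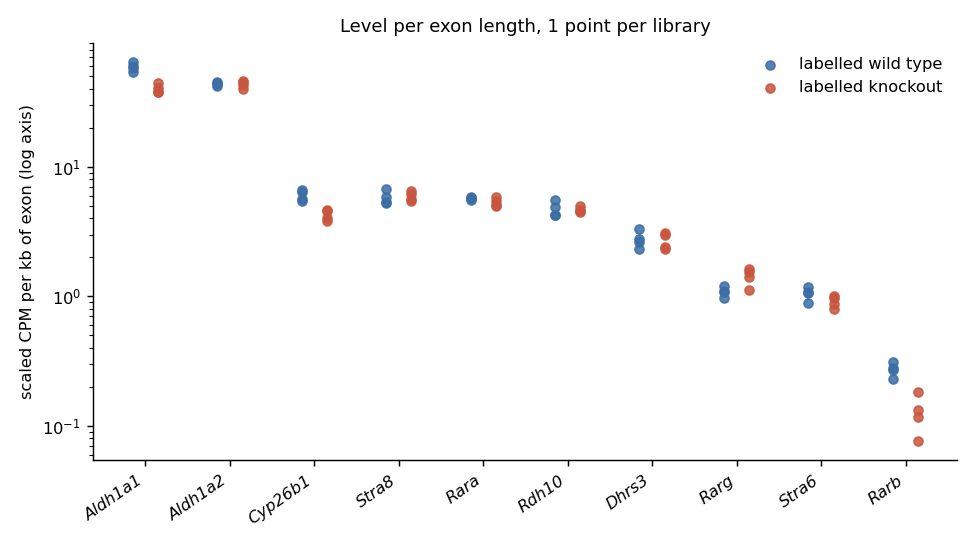
Scaled CPM per kb of exon (log axis) of the members, ordered by their level under the wild-type label, with 1 point per library in blue (wild-type label) or red (knockout label). Aldh1a1 and Aldh1a2 stand far above the rest, and Rarb stands lowest under both labels.

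A wider list of 74 further genes of retinoid transport, metabolism, binding and response was examined, of which 61 were found and 56 passed the filter on low values. Of these 4 rose and 4 fell, 14.3% against 16.9% of all tested genes, with a median log2 fold change of -0.05. Its calls are therefore given gene by gene and not as a change of the pathway. None of 8 tested genes of retinol transport and storage passed in limma, in edgeR or in DESeq2. Stra6l and Retsat, 2 of the 8, reached an unadjusted limma p under 0.05, beside 30.2% of all tested genes. Lrat, which esterifies retinol for storage, stood at 14.7 ± 0.832 and 13.8 ± 1.21 CPM. Lipe, with the highest mean CPM of that group, stood at 379 ± 10.1 and 387 ± 17.2 CPM.

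Of 12 tested genes that act on retinol and retinaldehyde, 2 rose and none fell, 16.7% called beside 16.9% of all tested genes. Bco1, which cleaves beta-carotene to retinaldehyde and whose repeat with a spacer of 1 base is printed above, stood at 31.5, 36.5, 28.5 and 34.9 CPM against 43.0, 41.6, 43.9 and 45.8 CPM. All 4 libraries labelled knockout lay above the others (log2 fold change 0.41, SE 0.07, limma adjusted p = 0.0017). Adh4, an alcohol dehydrogenase that can oxidize retinol, went from 7.99 ± 0.945 to 10.8 ± 0.499 CPM (limma adjusted p = 0.0065). Rdh11, with the highest mean CPM of the group, stood at 256 ± 13.9 and 255 ± 10.9 CPM. Fabp5, a fatty acid binding protein that also carries retinoic acid, rose from 2.43 ± 0.480 to 3.54 ± 0.364 CPM (limma adjusted p = 0.026). That call was lost without wild-type replicate 2 or 3 or knockout replicate 3 or 4 (limma adjusted p = 0.085, 0.076, 0.072 and 0.062). Crabp1, the other tested binding protein gene, stood at 4.58 ± 1.03 and 3.88 ± 0.210 CPM.

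The partner receptors did not pass: Rxra stood at 49.9 ± 2.85 and 53.5 ± 5.25 CPM, Rxrb at 31.7 ± 1.93 and 30.1 ± 1.31, and Rxrg at 1.70 ± 0.408 and 1.43 ± 0.322 CPM. Among 14 corepressors and coactivators of nuclear receptors, 3 fell and 1 rose, 28.6% called beside 16.9% of all tested genes. Nrip1, which retinoic acid induces and which dampens nuclear receptors, fell from 13.1 ± 1.20 to 8.76 ± 0.643 CPM (limma adjusted p = 0.00070). Hdac3, the deacetylase of a corepressor complex, fell from 67.9 ± 0.975 to 57.4 ± 0.662 CPM (limma adjusted p = 0.0024). Hdac3 had 67.1 to 69.2 CPM in every library labelled wild type and 56.5 to 58.1 CPM in every library labelled knockout. Rere, a coregulator of retinoic acid signalling, rose from 66.4 ± 1.54 to 77.1 ± 6.50 CPM (limma adjusted p = 0.028). Its call was lost without the variance trend (limma adjusted p = 0.085) and when any library other than wild-type replicate 3 or knockout replicate 2 was left out (limma adjusted p = 0.052 to 0.080). Ncor1, with the highest mean CPM of the group, stood at 139.5 ± 2.07 and 148 ± 10.4 CPM.

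No listed gene of the germ cell response passed the test. Of 9 tested genes limma, edgeR and DESeq2 called 0, beside 16.9%, 16.8% and 18.1% of all tested genes. A list of 9 is too short for 0 calls to set it apart from those shares. An unadjusted limma p under 0.05 was reached by 1 of the 9, beside 30.2% of all tested genes. The list held Gm4969, which RefSeq lists with the synonym Meiosin, the partner of Stra8, at 14.1 ± 3.00 and 13.7 ± 2.72 CPM. Rec8, a meiotic cohesin, stood at 66.1 ± 5.54 and 61.1 ± 6.19 CPM, and Kit, the receptor of differentiating spermatogonia, at 21.5 ± 2.48 and 24.7 ± 1.24 CPM. Of 4 tested genes known as retinoic acid responsive in other tissues, Rarres2, which encodes chemerin, fell 2.39-fold. It stood at 7.09, 4.88, 7.58 and 5.84 CPM against 2.48, 4.12, 2.32 and 1.69 CPM, without overlap (limma adjusted p = 0.0011). Tgm2, a transglutaminase, stood at 13.3 ± 2.82 and 9.85 ± 2.13 CPM and was not called by limma (adjusted p = 0.073), but passed by DESeq2 and without wild-type replicate 2 or knockout replicate 2.

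Markers of some somatic cells were also lower, to read beside the 8.32% of all tested genes that fell. In bulk tissue, fewer cells of a type and less RNA per cell cannot be told apart. Of 9 fibroblast and stroma markers 7 fell and none rose, and their summed level was 143 to 179 CPM for the wild-type label against 53.9 to 95.5 CPM for the knockout label. Of 9 peritubular myoid markers 5 fell, with a summed level of 404 to 474 against 335 to 361 CPM. Of 11 Leydig cell markers 6 fell and 1 rose, with 1211 to 1425 against 819 to 1249.9 CPM, which overlapped. The Leydig marker that rose was Hsd3b1, a steroidogenic dehydrogenase, from 22.4 ± 1.84 to 83.9 ± 14.2 CPM. Of 16 Sertoli cell markers 3 fell, with 1763 to 1889 against 1558 to 1780.3 CPM, which also overlapped. Of 9 endothelial markers 2 fell (44.3 to 49.6 against 35.3 to 43.2 CPM), and of 9 macrophage markers 1 fell (87.8 to 98.3 against 75.4 to 101 CPM). Of 8 markers of fat and epididymis, Lcn5, Lcn8 and Adam7 were not in the table, and of the other 5 1 fell (128 to 144 against 108 to 135 CPM). Most of that sum was Defb19, at 103 ± 9.05 and 99.99 ± 9.36 CPM, so the sum says little about the other genes of the list. Every gene of the table had at least 30 reads in total, so no marker found in it could be at 0 in all libraries. The part of these cells in the fall of Aldh1a1, Cyp26b1 and Rarb was not tested.

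Germ cell markers of each listed stage were among the genes of the table, but Nanos2, of the undifferentiated spermatogonium list, was absent from it. Of all tested genes limma, edgeR and DESeq2 called 16.9%, 16.8% and 18.1%. Of 9 undifferentiated spermatogonium, 9 pachytene spermatocyte, 9 round spermatid and 10 elongating spermatid markers none passed in limma, in edgeR or in DESeq2. An unadjusted limma p under 0.05 was reached by 1, 2, 1 and 2 of them in turn, beside 30.2% of all tested genes. The elongating spermatid list summed to 24918 to 26372 CPM for the wild-type label against 22096 to 28495 CPM for the knockout label. Of 9 markers of differentiating spermatogonia 3 fell, and of 11 markers of early meiosis 2 fell and 1 rose. Stra8 and Gm4969, which belong to the latter list, were not called.

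The same values were set side by side by library. On the log2 scale relative to the wild-type mean, the Leydig list stood at -0.49 and -0.35 in knockout replicates 1 and 4 and at -0.06 and -0.09 in replicates 2 and 3, where the wild-type libraries ranged from -0.07 to 0.12. Aldh1a1 was at -0.42 and -0.65 in replicates 2 and 3, and Rarb was lowest in replicate 2, at -1.10, and highest of its group in replicate 1, at -0.40. Cyp26b1 was lowest in replicates 1 and 4, at -0.64 and -0.56. The fibroblast list (-0.75 and -1.21) and the peritubular list (-0.33 and -0.54) were lowest there as well. So was the fat and epididymis list, at -0.84 and -1.01 against -0.28 and 0.10 in replicates 2 and 3. Its wild-type libraries ranged from -0.29 to 0.39. Without both knockout replicates 1 and 4, a choice made after the Leydig values were seen, the log2 fold changes of Aldh1a1, Cyp26b1 and Rarb were -0.54, -0.37 and -0.95 (limma adjusted p = 0.00079, 0.016 and 0.0036). The fibroblast list was at -0.64 and -0.58 in replicates 2 and 3, so leaving these libraries out does not separate the members from somatic cells.

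**Figure D4:**
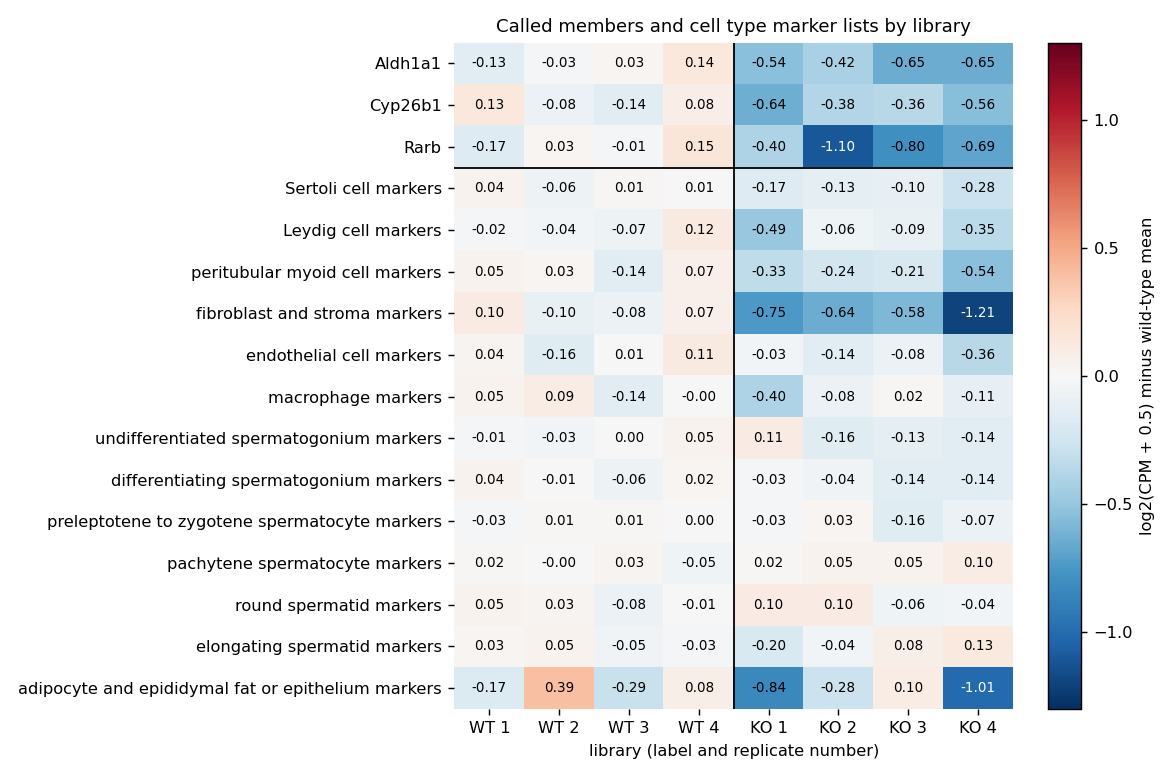
Log2(CPM + 0.5) minus the wild-type mean in each library (columns; WT and KO give the label and replicate number) for the 3 members that fell (top rows) and, as list means, for 13 lists of cell type markers. Blue is lower and red is higher; the fibroblast list is low in all 4 libraries labelled knockout, the Leydig list mainly in replicates 1 and 4, and Aldh1a1 is low in all 4.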

How the data were processed

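RNA-seq of 8 adult testis libraries was analysed from a table of 24988 genes. The authors deposited it as a scaled signal named CPM, with Trimmomatic, Subread and featureCounts and the build GRCm39 named in the submitters' processing notes; versions, annotation, strand setting and the scaling step are not given in the sources. Columns named control and kpn were matched to the titles by number, taking control as wild type. Every value was a whole multiple, within 0.01, of the column's smallest value above 0 (100% of values), and division by it returned 31133443 to 37797812 whole reads per library. The design had assumed plain CPM, and its log-scale test was kept.

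The test was limma 3.58.1 in R 4.3.3 on log2(CPM + 0.5), with a variance trend, for the 22027 genes that averaged 0.5 CPM or more, with Benjamini-Hochberg adjustment over all of them and a threshold of 0.05, without covariates. The recovered reads were tested with edgeR's quasi-likelihood test (version 4.0.16) and with DESeq2 1.42.0, keeping the deposited scaling. Other alternatives were median ratio scaling, quantile normalization, other pseudocounts and filters, no variance trend, the replicate number as a block and each library left out. The code was tested on simulated data. None of the 12 pairs of libraries within a group agreed within sampling noise (chi-square per degree of freedom 4.73 to 12.0).

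Members, pathway lists and marker lists were chosen with earlier results of these data known. All members were named, and of the wider list the called genes and the gene of highest mean CPM in each group; Lrat, Aldh1a3, Aldh8a1, Rxrb, Rxrg, Kit, Gm4969, Tgm2, Stra6l, Retsat and Hsd3b1 were named after their values were seen. Some genes of the wider list are not reported here. Symbols, coordinates and exon lengths came from GENCODE M21 on GRCm38, another build than the authors', and were not converted. Promoter sequences came from RefSeq (GRCm38.p6).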

Additional observations from a re-analysis of the deposited data

How the results depend on the processing

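Aldh1a1, Cyp26b1 and Rarb were lower and called under every alternative in which they were tested (Rarb was not tested with the filter at 2 CPM), with log2 fold changes of -0.61 to -0.52, -0.53 to -0.37 and -1.11 to -0.37. The count of members higher was 0, but 1 by DESeq2 and 0 to 1 when single libraries were left out, Rarg each time. In the wider list the count higher was 4 and ranged from 2 to 5 when single libraries were left out. Without both knockout replicates 1 and 4, a choice made after seeing the data, the calls over all genes were 2422 (1182 lower, 1240 higher), and those in the wider list 5, of which 2 were higher. That setting has fewer libraries. The numbers of the replicates did not pair the libraries (correlation of deviations between same-numbered libraries -0.03 to 0.04). With the replicate number as a block 3446 genes were called in place of 3731, with the same 3 members and 8 genes of the wider list, 4 higher and 4 lower. Depth limits Rarb most, with 14 to 63 reads per library.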

Other observations

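Among the 31 genes with a spacer-of-5 repeat in a RefSeq window, 6 were tested here, and Rarb alone was called, lower; their median log2 fold change was -0.03 beside -0.01 for all tested genes. The flagellar gene Cfap45, another of the 6, stood at 247 ± 26.7 and 252 ± 5.98 CPM.

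The pattern of Aldh1a1 over the 8 libraries was closest, among 11039 named genes averaging 5 CPM or more, to that of Wdr62, a centrosome and spindle gene, which stood at 559 CPM under the wild-type label and 396 CPM under the knockout label (root mean square difference 0.07 on the log2 scale). Nrip1 and Zfp462 followed, with differences of 0.09 each. This ranking over 8 libraries in 2 groups mostly reflects the size of the difference between the labels.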
